A study of Mus musculus with 24 samples.

Results

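Resting cultures of mouse cortical neurons that had lost Smarcc2 and received the S586E form of the protein were compared with cultures that had lost Smarcc2 and received an empty vector. The comparison was defined by the sample labels alone and holds 6 of the 24 libraries of the series, 3 in each group. In both groups the neurons came from embryonic day 16.5 cortex, carried CRISPR guide RNAs that knock out Smarcc2, and were kept for 18 days in vitro. Both were also silenced overnight with 1 µM tetrodotoxin, a sodium channel blocker, and 100 µM D-AP5, an NMDA receptor blocker, and neither received KCl. The promoter of the addback constructs and the guide sequences are not given in the sources used here. Each cortex of an embryo counted as 1 replicate, per the labels' protocols, and which embryo gave which library is not given. Used beside these groups were 2 resting libraries with wild-type Smarcc2 added back to the knockout (WT) and 2 resting libraries with a non-targeting guide (NT). Knockout cultures treated with 50 mM KCl for 30 min, with vector (3 libraries) or with the S586A form (2 libraries), were used as well. RNA was sequenced after removal of ribosomal RNA, and reads assigned to transcripts were summed per gene.

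BAF complexes are ATP-driven chromatin remodellers that slide or evict nucleosomes, and Smarcc2 and its paralog Smarcc1 form the scaffold on which the other subunits assemble. Neurons carry their own version of the complex, with subunits such as Actl6b, Dpf1, Dpf3 and Ss18l1. Glutamate in place of serine is used to imitate a phosphorylated residue, and alanine to prevent phosphorylation, so S586E and S586A are opposite designs at the same site.

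The 3 vector libraries held 19177644, 18409433 and 15882404 estimated counts, and the 3 S586E libraries 19893885, 24024959 and 18890480. Vector replicate 3 stood apart. Mitochondrial genes took 8.16% of its counts against 4.197% to 6.30% in the other 5 libraries. Its astrocyte markers were low: Gfap was at 37.3 CPM (counts scaled to the normalised library total) against 132 to 169.6 in the other 5, and Aqp4 at 1.97 CPM against 6.92 to 11.8. The 12 astrocyte markers summed to 982 CPM in this library, to 1208 and 1514 CPM in the other vector libraries, and to 1379 to 1497 CPM with S586E. In bulk RNA, fewer cells of a type and less RNA per cell cannot be told apart. Markers of the labelled cell type were present, and the 14 neuron markers summed to between 6703 and 8672 CPM in the 6 libraries. The astrocyte values above show that the cultures were not of neurons alone. Markers of the oligodendrocyte lineage summed to 169.7 to 187 CPM with vector and 175 to 199 CPM with S586E, with Gpr17 at 0 in all 6. Microglia markers summed to at most 7.68 CPM, with Tmem119, C1qb and C1qc at 0. Counts of called genes that moved by over 1.5 times without vector replicate 3 are given both ways.

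Smarcc2 itself was examined first. Its level was 47.1, 49.8 and 64.1 CPM in the vector libraries and 1236, 1164 and 1276 CPM with S586E. NT cultures had 265 and 237 CPM, and WT addback cultures 816 and 756 CPM. The groups did not overlap, and the S586E libraries lay above every other resting library. On the log2 scale the difference between S586E and vector was 4.52 (SE 0.144, adjusted p = 4.03e-13, edgeR). Smarcc2 stood 2.29 above NT on that scale (SE 0.151, adjusted p = 1.58e-07). Against WT addback it was 0.64 higher (95% interval 0.35 to 0.93), with an adjusted p of 0.114. On a scale per transcript length (TPM), the vector libraries had 18.7 to 23.6 TPM of Smarcc2 and 18.9 to 19.4 TPM of Smarcc1. With S586E the values were 307 to 358 TPM of Smarcc2 and 15.6 to 20.4 TPM of Smarcc1.

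The shares of the annotated transcripts differed between the addback and NT libraries. Smarcc2-202, which took 59.5% and 56.5% of the gene's counts in the NT libraries, had 362, 500 and 427 estimated counts in the vector libraries and 284, 514 and 511 with S586E. These ranges overlap. Smarcc2-203 had 33.0, 67.7 and 153 estimated counts with vector and 13085, 16226 and 14925 with S586E, where it took 58.1% to 61.1% of the gene's counts. In NT it took 9.52% and 14.85%. Smarcc2-201 took 30.8% to 34.7% with S586E and 29.0% and 27.8% in NT, so its share was near the same in both. In the WT addback libraries Smarcc2-203 took 59.6% and 60.6%. The deposited assignment of reads among these overlapping transcripts is an estimate, and the construct's own sequence was not used here.

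**Figure D1:**
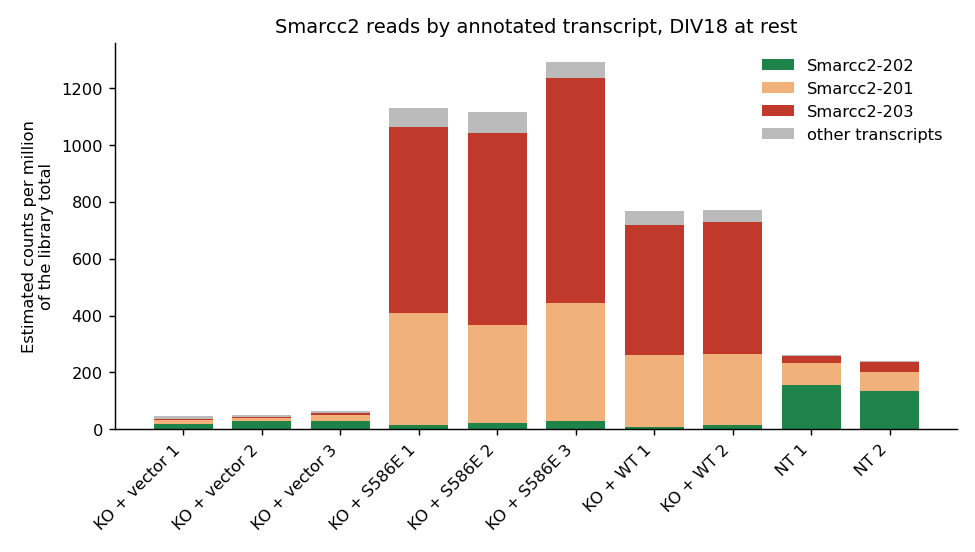
Estimated counts of the annotated Smarcc2 transcripts scaled to the library total (y axis, CPM) in each resting DIV18 library (x axis, group and replicate number), stacked by transcript. In the S586E and WT libraries most counts fall on Smarcc2-203 and Smarcc2-201, while in the NT libraries most fall on Smarcc2-202.

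The transcripts differ next to the residue the construct is named for, which is why their sequence is shown. In GENCODE M21 on build GRCm38, the codon of Smarcc2-202 at the position named in S586E is a serine codon at chr10:128482095-128482097 on the plus strand, in exon 19. Smarcc2-201 and Smarcc2-203 lack exon 18 of Smarcc2-202 (chr10:128481682-128481774, 93 bases or 31 codons). In their own numbering the same serine is codon 555, and at the position named in S586E they have AAC. The sources used here do not state which numbering the labels use, but of these transcripts only Smarcc2-202 has a serine codon at the named position. The coding strand of Smarcc2-202 from codon 574 to codon 598 with that serine codon in capitals, and the exon that the other transcripts skip are as follows.
Smarcc2-202, codons 574 to 598: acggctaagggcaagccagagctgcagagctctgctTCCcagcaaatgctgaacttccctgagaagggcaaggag
Smarcc2-202, exon 18: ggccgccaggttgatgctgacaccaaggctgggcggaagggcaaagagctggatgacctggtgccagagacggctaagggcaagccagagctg

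Across the transcriptome few genes passed the test. Of 20940 genes tested, 4 were called at an adjusted p under 0.05 (0.0191%), 3 higher (0.0143%) and 1 lower (0.00478%) with S586E. They were Smarcc2, Srebf2, Dact2 and Pgk1. At an unadjusted p under 0.05 stood 1560 genes (7.45%), of which 894 were higher and 666 lower. Without vector replicate 3 the number of calls was 16, of which 14 were higher and 2 lower, and the 4 genes above were among them. DESeq2 called 52 genes, and edgeR with no low-count filter 315. With the replicate number as a block, edgeR called 14 genes in the fit of all groups and 61 in that of only the groups compared. The median log2 fold change of all genes tested was -0.006.

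**Figure D2:**
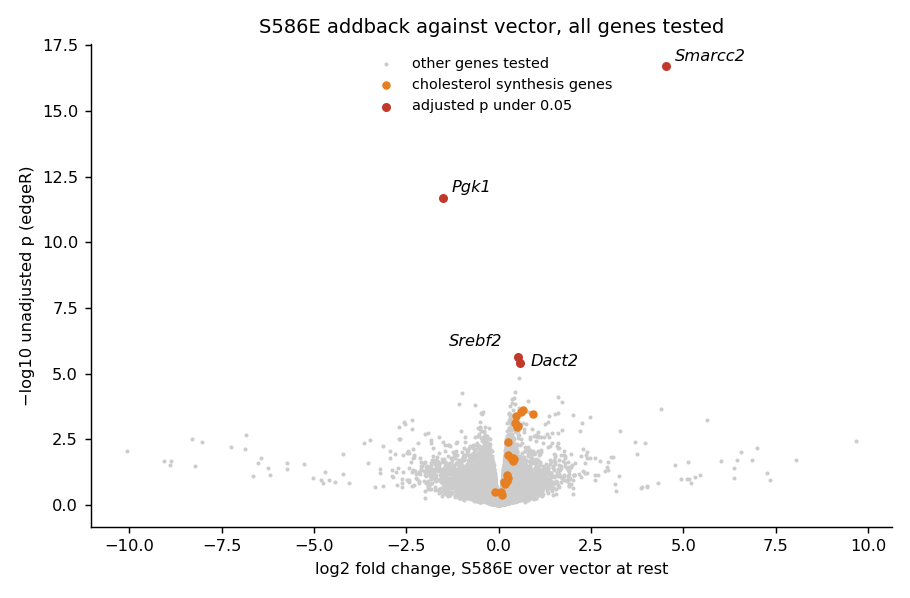
Log2 fold change of S586E over vector at rest (x axis) against the negative log10 of the unadjusted edgeR p (y axis) for all 20940 genes tested, with the 4 called genes in red and the cholesterol synthesis genes in orange. Smarcc2 and Pgk1 stand far from all others, and 21 of the 22 cholesterol synthesis genes lie to the right of 0.

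Pgk1 (chrX:106187100-106203699), a glycolytic enzyme that makes ATP from bisphosphoglycerate, was the gene that fell. It was at 1292, 1269 and 1278 CPM with vector and at 465, 479 and 403 CPM with S586E. The vector libraries lay within a narrow band and far above all S586E libraries. The log2 difference was -1.51 (SE 0.0924, adjusted p = 2.11e-08, edgeR), and it passed in all 13 alternatives, with values between -1.56 and -1.44. Pgk1 was at 512 and 570.1 CPM in NT and at 571 and 588 CPM in WT addback cultures, so among the resting groups the vector cultures had the high level. Under KCl the vector libraries had 1525, 1367 and 1671 CPM and the S586A libraries 601 and 665 CPM. The other glycolysis genes did not share the difference. Of 20 tested, 16 had a positive log2 fold change and Pgk1 was the only one called. Hk1, a hexokinase, was next by p (log2 difference 0.23, adjusted p = 0.484). It was at 331, 320 and 313 CPM with vector and at 401, 375 and 358 CPM with S586E.

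Srebf2 (chr15:82147181-82205379) encodes SREBP2, the membrane-bound transcription factor that is released when sterols are low and drives the genes of cholesterol synthesis and uptake, its own among them. Its level was 155, 159 and 179 CPM with vector and 258, 218 and 231 CPM with S586E, with no overlap. The log2 difference was 0.52 (SE 0.077, adjusted p = 0.0165). NT cultures had 225 and 231 CPM, within the S586E range, and WT addback cultures 181 and 181 CPM, just above the vector range. Srebf2 passed in 8 of the 13 alternatives, but not with length offsets or in the fit of only the groups compared. Its adjusted p was 0.104 without S586E replicate 1, 0.177 without vector replicate 1, 0.16 without vector replicate 2 and 0.00469 without vector replicate 3.

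Dact2 (chr17:14195052-14204304), a cytoplasmic modulator of Wnt and TGF-beta signalling, was at 20.8, 24.4 and 24.5 CPM with vector and at 34.8, 35.0 and 34.1 CPM with S586E. Its S586E libraries lay close together, with an SD of 0.482 CPM (n = 3), and none overlapped the vector libraries. The log2 difference was 0.58 (SE 0.0892, adjusted p = 0.0202). NT cultures had 34.2 and 36.4 CPM, and WT addback cultures 30.4 and 32.4 CPM. Dact2 passed in 6 of the 13 alternatives. Leaving out any 1 library other than vector replicate 3 ended the call, with adjusted p between 0.0739 and 0.177. Dact2 was also not called with length offsets or in the fit of only the groups compared. On the scale per transcript length the groups lay closer. Dact2 was at 7.82, 11.413 and 8.06 TPM with vector and at 11.444, 12.6 and 13.6 TPM with S586E. Wnt pathway genes as a list gave no further call: of 23 tested, 2 were higher and 2 lower at an unadjusted p under 0.05, beside 4.27% and 3.18% of all genes, with a median log2 fold change of 0.12.

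The genes next in order of p did not pass, and their values are given as measured. Limk1, a kinase that inactivates the actin-severing protein cofilin, was at 64.7, 61.1 and 80.8 CPM with vector and at 109, 97.1 and 97.0 CPM with S586E (log2 difference 0.55, adjusted p = 0.0595). Without vector replicate 3 its adjusted p was 0.0027. Icosl, the ligand of the T-cell costimulator ICOS, had low levels of 0.862, 1.95 and 2.48 CPM with vector and 4.61, 5.46 and 5.85 CPM with S586E. Its log2 difference was 1.60 (SE 0.318, adjusted p = 0.193), and NT cultures had 9.60 and 9.22 CPM. Fasn, the fatty acid synthase, was at 488, 495 and 516 CPM with vector and at 688, 628 and 666 CPM with S586E (log2 difference 0.40, adjusted p = 0.193). WT addback cultures had 509.7 and 487 CPM of Fasn, level with the vector libraries, and NT cultures 689 and 656 CPM. The rest of the higher group were Tnrc18, Evc2, a ciliary regulator of hedgehog signalling, Cryba2, Pde2a, a cyclic nucleotide phosphodiesterase, and Aacs, which makes acetoacetyl-CoA for lipid synthesis. Their log2 differences ran from 0.37 to 1.72 and their adjusted p was 0.193 to 0.209. Each of these 8 genes was chosen for having no overlap between groups, as 5.62% of all genes tested had in this direction.

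On the lower side 11 further genes were named by the same rule, with adjusted p between 0.209 and 0.319, and 5.47% of all genes tested had no overlap in this direction. Gabrg1, a subunit of GABA-A receptors, was at 10.4, 8.18 and 10.3 CPM with vector and at 5.55, 6.51 and 6.37 CPM with S586E (log2 difference -0.64). Fosl2, a member of the AP-1 family of transcription factors, was at 31.8, 28.4 and 32.6 CPM with vector and at 22.1, 21.1 and 23.7 CPM with S586E (log2 difference -0.47, adjusted p = 0.212). NT cultures had 18.9 and 21.3 CPM of Fosl2. Zfp92 had a log2 difference of -1.08, Cyp4x1 of -0.44, Fn3krp of -0.45 and Rtl5 of -0.49. Fras1, an extracellular matrix protein, was at 19.4, 17.5 and 17.8 CPM with vector and at 12.2, 12.4 and 14.1 CPM with S586E. Zfp811, Spcs2, a signal peptidase subunit, Pfn4 and Bex1 had log2 differences of -0.26 to -0.56.

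**Figure D3:**
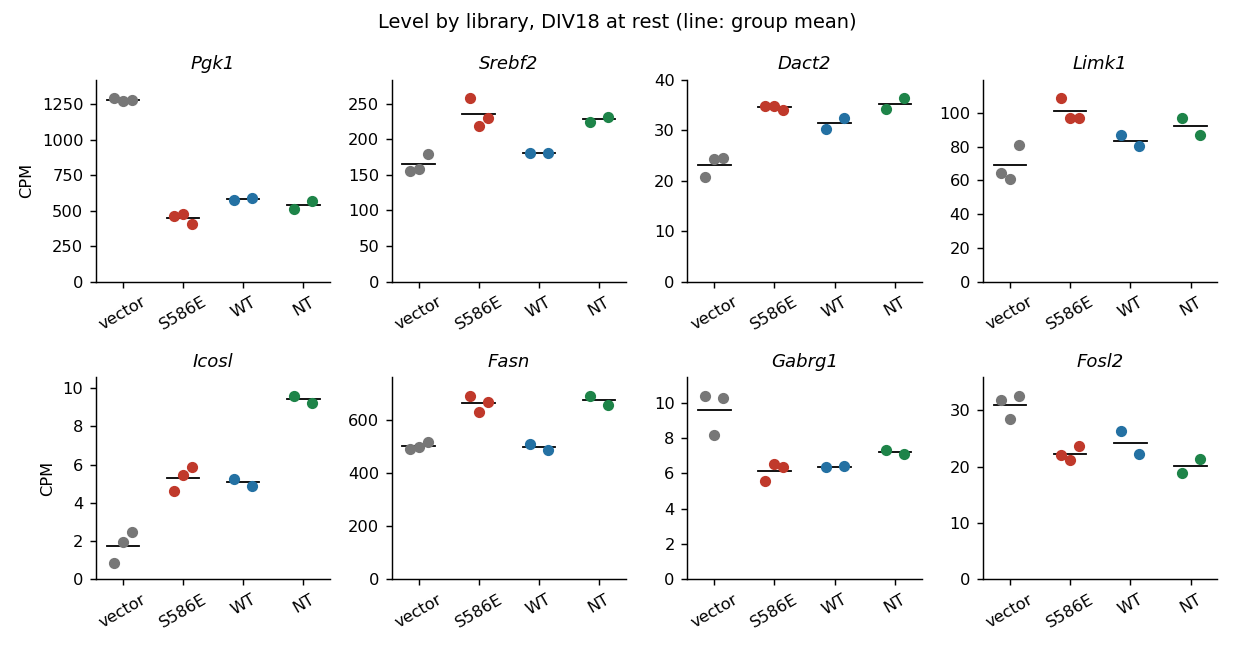
CPM (y axis, from 0) of 8 genes in each resting DIV18 library, with 1 point a library and a line at the group mean, for knockout with vector, with S586E, with WT, and NT. Pgk1 is high in the vector libraries alone, while Srebf2 and Fasn in the S586E libraries lie near NT and above WT.

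The genes that SREBP2 is known to drive were then read as a group. All 22 genes of a list of cholesterol synthesis, uptake and control were tested. Only Srebf2 was called, and 14 of the 22 were higher and none lower at an unadjusted p under 0.05, beside 4.27% of all genes higher and 3.18% lower. The median log2 fold change was 0.35, and 10 of the 22 had no overlap between groups, all higher, beside 5.62% of all genes. The summed level was 1419, 1413 and 1632 CPM with vector and 2219.9, 1703 and 1930.5 CPM with S586E. NT cultures summed to 1891.5 and 2073 CPM and WT addback cultures to 1726 and 1648 CPM. S586E replicate 1 was the highest of all and S586E replicate 2 the lowest of its group. Vector replicate 3, the library low in astrocyte markers, was the highest of the vector group. Without it the median was 0.40, with 16 of 22 at an unadjusted p under 0.05 and 4 called, Srebf2, Fdft1 and Mvd among them. In the same fit the median of the 12 astrocyte markers was -0.21, against 0.18 with all libraries. Leaving out each of the other libraries gave medians between 0.24, without S586E replicate 1, and 0.44, without S586E replicate 2.

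Members are given in the order of the pathway. At its entry, Hmgcs1, which makes HMG-CoA, was at 263, 226 and 245 CPM with vector and at 430, 287 and 326 CPM with S586E (log2 difference 0.51, SE 0.131). Mvd, which closes the mevalonate steps, was at 18.3, 21.2 and 27.4 CPM with vector and at 38.1, 28.02 and 36.2 CPM with S586E (0.62, SE 0.139). All Hmgcs1 and Mvd libraries with S586E lay above all with vector. At the branch to sterols, Fdft1, the squalene synthase, was at 73.6, 73.9 and 105 CPM with vector and at 165, 108 and 125 CPM with S586E (0.66, SE 0.145). Sqle, the squalene epoxidase, had a log2 difference of 0.44. Among the sterol enzymes that follow, the log2 difference was 0.26 for Cyp51 and 0.52 for Msmo1. Lss (0.16), Nsdhl, Hsd17b7, Ebp (0.08), Sc5d (0.14) and Dhcr7 (0.07) had an unadjusted p above 0.05, as did Pmvk (-0.11) and Fdps of the earlier steps. Insig1, the sterol-dependent brake on SREBP processing, had a difference of 0.25 and Stard4, a sterol carrier, of 0.40.

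The upstream sequence of the list was searched for motifs. The RefSeq table (GRCm38.p6) gave promoters for 15 of the 22, with 250 bases before the start. The CCAAT box, the motif of NF-Y, a factor known to bind beside SREBP, was read as CCAAT on either strand, so that ATTGG counts too. It stood in at least 1 promoter of each of the 15 genes and in 39.9% of the 13267 tested genes with a promoter. The sterol response core, read as TCACNCCAC on either strand and chosen after sequences were seen, stood in 1 of the 15, Hmgcs1, and in 1.21% of the tested genes. Both longer forms searched, which have an A before the core and of which one is the classic sterol response element, stood in 0 of the 15. The E-box CACGTG, which SREBP can also bind, stood in 4 of the 15, Dhcr7, Hsd17b7, Insig1 and Sc5d, and in 9.06% of the tested genes. Matches are descriptions of letters and not binding sites. Srebf2 is printed as the called member, and Hmgcs1 and Mvd as members with no overlap between groups, 5′ to 3′ on the coding strand, with CCAAT boxes and the sterol response core in capitals.
Srebf2, chr15:82147019-82147268, plus strand: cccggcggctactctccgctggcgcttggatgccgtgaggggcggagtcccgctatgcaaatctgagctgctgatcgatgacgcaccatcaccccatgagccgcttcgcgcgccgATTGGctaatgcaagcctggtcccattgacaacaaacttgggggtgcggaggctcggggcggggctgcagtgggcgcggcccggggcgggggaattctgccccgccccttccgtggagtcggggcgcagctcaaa
Hmgcs1, chr13:119690101-119690350, plus strand: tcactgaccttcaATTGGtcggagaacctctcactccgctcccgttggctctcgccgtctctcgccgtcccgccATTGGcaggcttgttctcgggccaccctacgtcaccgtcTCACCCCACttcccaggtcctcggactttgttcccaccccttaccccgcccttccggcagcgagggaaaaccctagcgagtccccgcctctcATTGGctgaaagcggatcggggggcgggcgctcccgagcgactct
Mvd, chr8:122443423-122443672, minus strand: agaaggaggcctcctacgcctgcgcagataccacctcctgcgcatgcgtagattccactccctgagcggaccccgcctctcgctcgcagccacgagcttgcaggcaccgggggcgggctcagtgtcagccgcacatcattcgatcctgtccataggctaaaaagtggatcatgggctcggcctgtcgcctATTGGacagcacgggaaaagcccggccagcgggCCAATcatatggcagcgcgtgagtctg

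The same 22 genes had a smaller median difference from vector with S586A under KCl, a comparison that shares no library with the resting one but differs from it in both construct and state. There the median was 0.03, with 1 gene higher and none lower at an unadjusted p under 0.05, beside 6.9% of all genes higher and 6.14% lower. Srebf2 was at 149.9, 156 and 174 CPM with vector under KCl and at 171 and 183 CPM with S586A (log2 difference 0.15, adjusted p = 0.486). The difference between the 2 responses was tested directly. For Srebf2 it was 0.37 (95% interval 0.13 to 0.61, unadjusted p = 0.00475), which did not pass over all genes (adjusted p = 0.903). Of the list, 9 of the 22 were higher and none lower at an unadjusted p under 0.05, beside 2.73% of all genes higher and 2.68% lower. Construct and state cannot be told apart in this test.

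**Figure D4:**
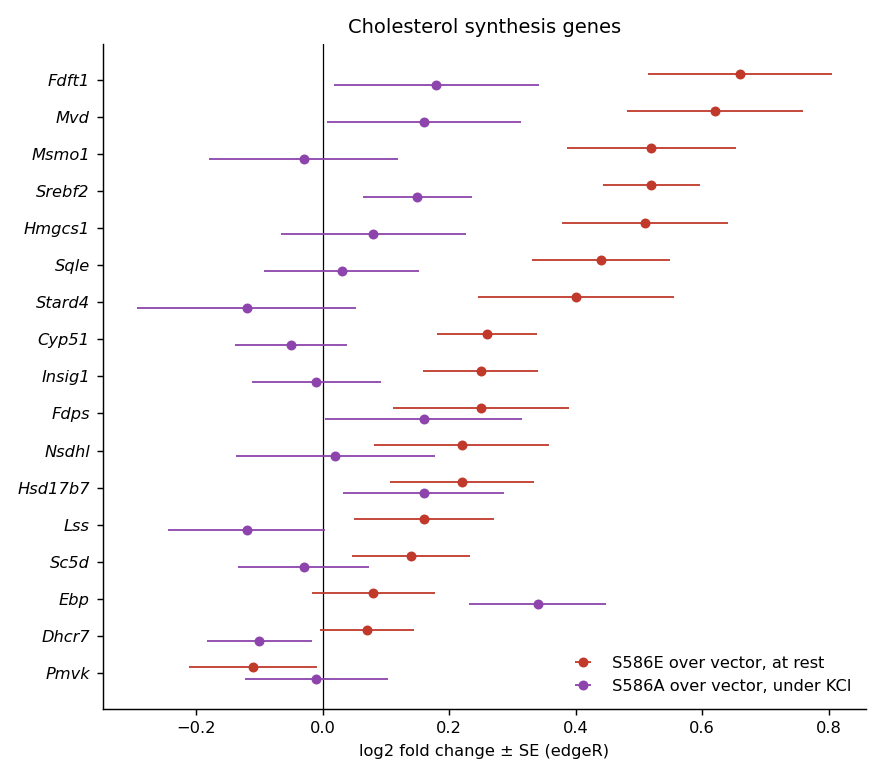
Log2 fold change (x axis, point) with its standard error (bar) for 17 of the cholesterol synthesis genes (y axis), for S586E over vector at rest in red and S586A over vector under KCl in purple. With S586E 16 of the 17 points lie right of 0, all but Pmvk, and with S586A the points lie on both sides of 0.

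Neuronal genes were read next. Among 20 postsynaptic scaffold genes none was called, 9 were higher and none lower at an unadjusted p under 0.05, and the median log2 fold change was 0.15. Over all genes 4.27% were higher and 3.18% lower. The count was 3 without S586E replicate 1. Homer2, an adaptor that links glutamate receptors to calcium stores, had the largest difference, at 31.5, 30.8 and 34.5 CPM with vector and 39.9, 42.9 and 39.6 CPM with S586E (0.34, SE 0.0859, adjusted p = 0.284). Shank3, a scaffold of the postsynaptic density, was at 210.0, 209 and 209.9 CPM with vector and at 238, 232 and 247 CPM with S586E (0.19, SE 0.0692, adjusted p = 0.542). NT cultures had 317 and 338 CPM of Shank3, and it was the one scaffold gene called lower in S586E against NT (log2 difference -0.46, adjusted p = 0.00621). Among these named scaffold genes, chosen after their values were seen, no S586E library overlapped a vector library. Of the 20, 9 had all S586E libraries above all vector libraries and 0 had them below, beside 5.62% and 5.47% of all genes.

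Of 26 synaptic vesicle and release genes, 6 were higher and 1 lower at an unadjusted p under 0.05, beside 4.27% and 3.18% of all genes, with a median of 0.13. The counts were 2 and 1 without S586E replicate 1, and 1 and 2 without vector replicate 2. Syt2, a fast calcium sensor of release, was at 9.69, 5.65 and 4.84 CPM with vector and at 15.3, 11.6 and 11.2 CPM with S586E (0.91, SE 0.241, adjusted p = 0.319). Slc17a6, a vesicular glutamate transporter, was the lower one (-0.38). Of 28 voltage-gated channel genes 5 were higher and none lower, with a median of 0.04. Cacna1g, Cacna2d2 and Hcn2 were among them. The count of higher ones was 3 without vector replicate 2 or 3. All 14 neuron markers had a positive log2 fold change, with a median of 0.19, and 4 had an unadjusted p under 0.05, Snap25, Nefl, Nefm and Stmn2. Without S586E replicate 1, and likewise without vector replicate 2, none of the 14 did. The part of the neuron markers' level in the synaptic lists was not tested. 

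Activity-response genes, which depolarization induces, gave no call in these silenced cultures in the main fit. DESeq2 called 1 early-response gene lower, Fosl2, and Fos was among the genes called by edgeR with no low-count filter. Of the 19 early-response genes, 3 had all S586E libraries below all vector libraries and 0 had them above, beside 5.47% and 5.62% of all genes. Of 19 early-response genes 1 was higher (Egr3, 0.31) and 1 lower (Fosl2) at an unadjusted p under 0.05, near the 4.27% and 3.18% of all genes. Fos, the prototype of the early genes, was at 5.82, 8.34 and 4.59 CPM with vector and at 2.75, 3.90 and 3.60 CPM with S586E, with a log2 difference of -0.87 (SE 0.61). Of 10 late-response genes 1 was lower, Pcsk1, a prohormone convertase (-0.48). Clca1, which the submitters used as a sign of excitotoxicity, was between 0.0539 and 0.714 CPM in the 6 libraries.

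Stress lists had negative medians. Of 15 p53 target genes 5 were lower and none higher at an unadjusted p under 0.05, beside 3.18% of all genes lower and 4.27% higher, with a median of -0.20. They included Bbc3, a pro-apoptotic BH3 protein, Eda2r and Trp53 itself, at 21.8, 18.8 and 19.9 CPM with vector and 17.7, 17.3 and 15.7 CPM with S586E. The summed level of the list was 774 to 854.5 CPM with vector and 642 to 786 CPM with S586E, with S586E replicate 1 the lowest. The count was 1 without S586E replicate 1 and 2 without vector replicate 2 or 3. Of 19 heat shock and unfolded-protein genes 3 were lower, Hspa5, Hsph1 and Trib3, with a median of -0.18, and none were without vector replicate 3. Hspa5, the main chaperone of the endoplasmic reticulum, varied within groups, at 347, 395 and 549 CPM with vector and 235, 277 and 437 CPM with S586E. Read by replicate number, the S586E library was the lower one each time. Hspa5 was called with the replicate block in the fit of only the groups compared, but not in that of all groups.

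**Figure D5:**
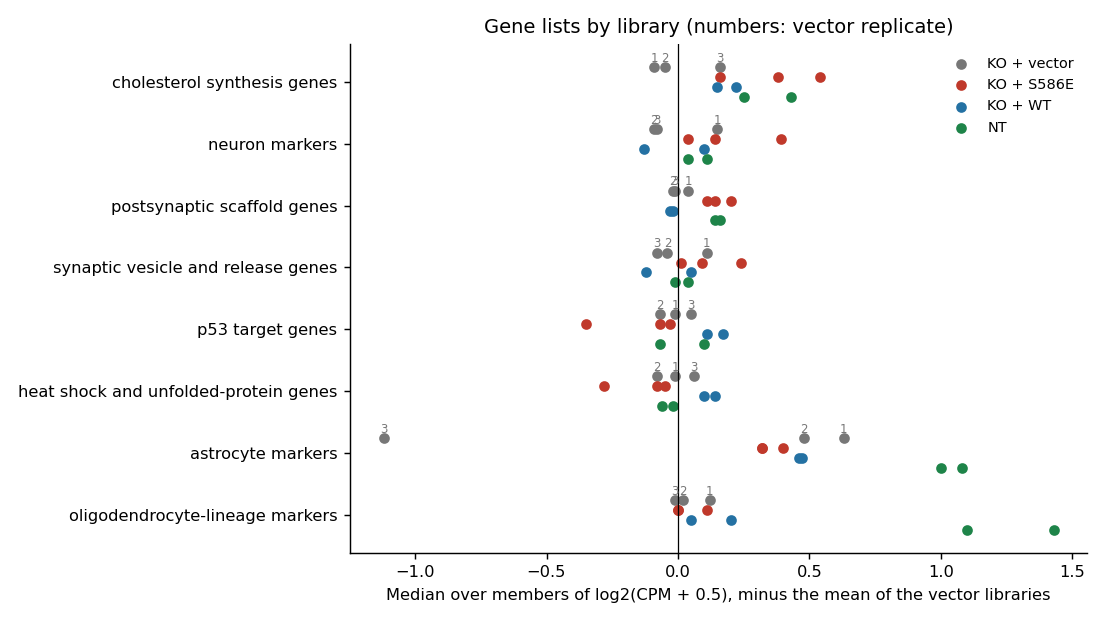
Median over the tested members of each list (y axis) of log2(CPM + 0.5) minus the mean of the vector libraries (x axis), with 1 point a library and the vector replicate numbers printed above the grey points. Vector replicate 3 lies at -1.12 for astrocyte markers, away from 0.63 and 0.48 in the other vector libraries, and at 0.16 for cholesterol synthesis genes, level with S586E replicate 2.

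Among 29 tested subunits of BAF-type complexes, Smarcc2 was the only one called. Smarcc1 was at 94.5, 90.7 and 89.0 CPM with vector and at 99.4, 85.0 and 86.3 CPM with S586E, which overlap, and its log2 difference of -0.02 had a 95% interval of -0.18 to 0.14. Smarca2, one of the ATPases, had a difference of 0.24 (adjusted p = 0.588). Arid1a, a subunit that defines the canonical complex, had one of -0.19 (adjusted p = 0.655) and Dpf2 of -0.16 (adjusted p = 0.667). The neuronal subunits Actl6b, Dpf1, Dpf3 and Ss18l1 had differences between 0.00 and 0.11.

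Of 18 cortical identity factors 4 were higher and 1 lower at an unadjusted p under 0.05, beside 4.27% and 3.18% of all genes, with a median of 0.14. Without S586E replicate 1 the median was 0.02, with 1 higher, and without vector replicate 2 it was 0.04, with 2 higher. Mef2c, a factor that limits excitatory synapse number, was at 718, 629 and 774 CPM with vector and at 922, 830.1 and 821 CPM with S586E, with no overlap (0.28, SE 0.0933, adjusted p = 0.505). Cux2, a mark of upper-layer neurons, had a difference of 0.31, and Fezf2, a factor of deep-layer subcerebral neurons, one of -0.52. Fezf2 was low throughout, at 7.77 to 10.9 CPM with vector and 6.11 to 6.26 CPM with S586E.

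Receptor and matrix lists held few differences. The counts of this paragraph stand beside 4.27% of all genes higher and 3.18% lower. Of 26 glutamate receptor genes 2 were higher and 2 lower at an unadjusted p under 0.05. Grin1, the obligate NMDA receptor subunit, was at 496, 521 and 484 CPM with vector and at 525, 566 and 585 CPM with S586E (0.16, SE 0.0626, adjusted p = 0.575). Among 19 GABA genes Pvalb was the higher one (0.67), and Gabrg1 and Gabrg3 (-0.31) were the lower ones. Of 26 extracellular matrix genes 3 were higher, Acan, Bcan and Tnr, and 1 lower, Fras1. Without S586E replicate 1 a single one was higher. Acan, a proteoglycan of perineuronal nets, was at 2.42, 3.38 and 2.80 CPM with vector and at 6.10, 4.42 and 4.02 CPM with S586E (0.75, SE 0.302, adjusted p = 0.584). Bcan was at 26.9, 24.2 and 21.2 CPM with vector and at 32.8, 29.9 and 37.7 CPM with S586E (0.47, SE 0.128, adjusted p = 0.357). Tnr, a tenascin that cross-links such nets, had a difference of 0.24. Bcan is also made by glia, and the astrocyte values given above move with it in vector replicate 3, which was the lowest for both. Its part in the result was not tested. Of 30 axon guidance and adhesion genes 3 were higher and 2 lower, with a median of -0.01, and Slit2, a repellent cue, was at 11.8 to 12.3 CPM with vector and 8.35 to 9.82 CPM with S586E (-0.39). Lists of mitochondrially encoded genes, long noncoding RNAs, proliferation genes and interferon-response genes had no member at an unadjusted p under 0.05.

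Whether S586E acts otherwise than the wild-type protein is asked by the comparison of both addbacks at rest, which uses the same S586E libraries. With edgeR 0 of 20940 genes were called (0.0%), 2696 had an unadjusted p under 0.05 (12.9%), and DESeq2 called 319. Srebf2 was 0.38 higher with S586E (95% interval 0.20 to 0.56, adjusted p = 0.118), Fasn 0.41 higher (0.22 to 0.60, adjusted p = 0.114) and Pgk1 had a difference of -0.37 (-0.58 to -0.16, adjusted p = 0.141). Dact2 had a difference of 0.14 (-0.07 to 0.35) and Icosl of 0.07 (-0.61 to 0.74). The level of Smarcc2 itself was higher with S586E by the amount given above, and its part in these differences was not tested. The cholesterol list had a median of 0.19, with 8 of 22 higher and 1 lower at an unadjusted p under 0.05, beside 6.26% of all genes higher and 6.62% lower. The voltage-gated channel list had 17 of 28 higher and none lower, with a median of 0.27. Of the glycolysis list 10 of 20 were lower and none higher, with a median of -0.34. In both lists it was WT addback that lay further from vector. Against vector the channel list had a median of 0.04 with S586E and -0.21 with WT addback. The glycolysis list had medians of 0.09 and 0.39. The 2 WT libraries were not left out in turn.

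Wild-type addback against the same vector libraries called 3 genes (0.0143%), 1 higher (0.00478%) and 2 lower (0.00955%). They were Smarcc2 (3.88, adjusted p = 8.06e-12), Pgk1 (-1.14, adjusted p = 1.93e-05) and Fras1 (-1.01, adjusted p = 0.0154). Both addbacks were read against the same vector libraries, so these values stand only beside those of S586E, which were 4.52, -1.51 and -0.50. Without vector replicate 3 the number of calls was 23, 16 higher and 7 lower. DESeq2 called 178, and edgeR with no low-count filter 604. The cholesterol list also had a positive median with WT addback against vector, 0.19, beside 0.35 with S586E. Of its 22 genes 18 had a positive log2 fold change with WT addback. At an unadjusted p under 0.05, 4 were higher and none lower, beside 1230 higher and 1086 lower of all 20940 genes.

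Against NT, S586E gave 583 called genes (2.78%), 218 higher (1.04%) and 365 lower (1.74%). Vector gave 1236 (5.9%), 446 higher (2.13%) and 790 lower (3.77%). These comparisons share the 2 NT libraries, so the counts stand side by side only. They also reuse the S586E and vector libraries in which Srebf2, Dact2 and Pgk1 were called and the cholesterol list was read. The values that follow are therefore no separate evidence of a return to the NT level. Srebf2 was at -0.47 with vector (adjusted p = 0.00386) and 0.05 with S586E (adjusted p = 0.833), and Dact2 at -0.61 (adjusted p = 0.00179) and -0.03 (adjusted p = 0.919). Pgk1 was at 1.24 with vector (adjusted p = 5.24e-06) and -0.27 with S586E (adjusted p = 0.161). For the cholesterol list the median was -0.33 with vector, with 8 called lower, and 0.02 with S586E, with none called. The markers of the oligodendrocyte lineage had medians of -1.15 with vector and -1.17 with S586E. Sox10, a defining factor of that lineage, had 0, 0 and 0 estimated counts with vector, 0, 2 and 1 with S586E, and 65 and 183 in NT.

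The only calls with S586A against vector under KCl were Smarcc2 and Pgk1 (2 of 20940, 0.00955%, with 0.00478% in each direction). DESeq2 called 215, and edgeR with no low-count filter 531. Smarcc2 was at 49.1, 47.6 and 60.0 CPM with vector there and at 1339.9 and 1303 CPM with S586A. The direct test between both responses called 0 genes with edgeR (0.0%), with 1133 at an unadjusted p under 0.05 (5.41%), and DESeq2 called 1. For Pgk1 the responses differed by -0.25 (95% interval -0.53 to 0.04). At an unadjusted p under 0.05, 268 genes were higher in both, which is 30.0% of the 894 with S586E and 18.5% of the 1445 with S586A, and 5 of the 894 were lower with S586A. Lower in both were 123 genes, 18.5% of 666 and 9.57% of 1285, and 14 of the 666 were higher with S586A. Of all genes tested, 6.9% were higher and 6.14% lower with S586A, and 4.27% higher and 3.18% lower with S586E.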

How the data were processed

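RNA was measured in 24 libraries, and the 20 DIV18 libraries (8 groups) were used here. Per the submitters' processing notes the authors used FastQC, cutadapt and kallisto, and versions, genome build and annotation are not given in the sources used here. Per the file headers, the deposited tables give each transcript's estimated count, TPM and effective length. Of 142552 transcripts, 141429 (99.21%) matched GENCODE M21 (GRCm38), and the 1123 others, with at most 0.441% of a library's counts, were left out.

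For each gene the estimated counts of its transcripts were added up and rounded to whole numbers. Groups were compared, two-sided, with the quasi-likelihood test of edgeR 4.0.16 (R 4.3.3), with TMM normalisation and the filterByExpr low-count filter. Groups were fitted together with no block (12 residual degrees of freedom, biological coefficient of variation 14.6%), with Benjamini-Hochberg adjustment over the 20940 genes tested and calls at an adjusted p under 0.05. CPM values are TMM-scaled. The deposited TPM values were summed per gene and used as a level per length, and the deposited effective lengths served for length offsets. Fits were tested on simulated data. The precision of every value is limited by 2 or 3 libraries a group.

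Named were Smarcc2, Smarcc1, Clca1, called list members, and in each direction called genes, then those with the smallest p, up to 12. Such genes had to average 1 CPM or more, with libraries of both groups not overlapping, and no predicted or pseudogene name. List members and genes called without vector replicate 3 were named after their values were seen. The members and the 28 gene lists were chosen with earlier results of these data known. As alternatives, DESeq2 1.42.0, size factors by median of ratios, no filter, a fit of the compared groups alone, a replicate block, length offsets and omission of each S586E and vector resting library in turn were tried. Some genes of these lists and of the naming rule are not reported here.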

Additional observations from a re-analysis of the deposited data

How the results depend on the processing

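Against the 4 genes called for S586E over vector (3 higher, 1 lower), DESeq2 called 52 (46 higher, 6 lower), with no adjusted p for 9340 genes, the fit with no low-count filter 315 (226 and 89) and length offsets 2 (1 higher). Median-of-ratios size factors gave 4 and the fit of the compared groups alone 3. The libraries left out in turn were the 6 of S586E and vector at rest, and no other library was left out in any comparison. Omitting 1 of them gave 2 to 16 calls, 1 to 14 higher and 1 to 2 lower. The lowest came without vector replicate 1 or 2 (2 calls each) and the highest without vector replicate 3. Replicate numbers are shared by both groups but not stated to pair samples. Deviations of same-numbered libraries correlated at 0.271, 0.0934 and 0.27 across genes, not all above 0.1, and those of different numbers at -0.26 to -0.0238. Each library correlated best with its own number. With the replicate number as a block, 14 genes were called (12 higher, 2 lower) in the fit of all groups and 61 (50 and 11) in that of only the groups compared. For S586E against WT addback the calls were 319 with DESeq2, 782 with no filter, 43 with the block, 1 with length offsets and 0 to 1 without 1 of the 6. WT addback against vector gave 36 calls with the block against 3. For the difference between the S586E and S586A responses they were 1 with DESeq2, 80 with no filter and 0 to 1 without 1 of the 6. Alternatives for the comparisons with NT were added after the data were seen. Against 583, S586E over NT gave 1107 with DESeq2, 1582 with no filter, 925 with the block, 168 with length offsets and 64 to 756 without 1 of the 6 (64, 170 and 267 without S586E replicates 1, 2 and 3). Against 1236, vector over NT gave 2016 with no filter, 681 with length offsets and 724 to 1218 without 1 of the 6, the lowest without vector replicate 1. Smarcc1 lay near 0, between -0.0945 and 0.0221 without 1 of the 6, with a sign opposite to that with all libraries at 0.0221 without S586E replicate 2, 0.0107 without S586E replicate 3 and 0.00494 without vector replicate 1. The cause of these shifts was not tested. Smarcc2 and Pgk1 passed in all 13 alternatives.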
